A study of Drosophila melanogaster with 12 samples.

Results

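Cut wing discs over the first 24 hours of regeneration (C0→C24) were profiled on 4 of the 12 arrays of the series, those whose titles name cut discs between 0 and 24 hours. On each of them RNA from cut discs kept in a host for 24 hours was hybridized against RNA from cut discs at 0 hours. The later RNA carried Cy3 on the arrays of dye order A and Cy5 on those of dye order B. There were 2 biological replicates with 2 dye-swapped arrays each, named here 1A, 1B, 2A and 2B. Discs came from larvae of the third instar of an isogenic DrosDel line that the labels spell w118iso; 2iso; 3iso and the methods w1118 ISO; 2iso; 3iso. Cutting removed 90° of the disc on its posterior side. What was left, mostly anterior, was cultured at 25 °C inside young adult Canton S females. Intact discs of the same line, handled and implanted in the same way but not cut (NC0→NC24), filled 4 further arrays and are used here for comparison. Cut discs between 24 and 72 hours (C24→C72) filled the last 4. The RNA of cut discs at 24 hours served in both comparisons of cut discs, whereas no RNA was shared between C0→C24 and NC0→NC24. It stands on opposite sides of those 2 ratios. Genes picked for a rise in C0→C24 are thus biased towards a fall in C24→C72, and the reverse, wherever both are given below. Both RNAs of a C0→C24 array came from cut discs, so cutting itself is seen only through what followed it in the host. A host abdomen holds adult fat body, ovary, gut, trachea and blood cells, and how many discs made up an RNA is not given in the sources used here.

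Wing imaginal discs are epithelial sacs set aside in the larva that form the wing and the notum at metamorphosis. A fragment cultured in an adult female closes its wound, proliferates and restores the missing part, and JNK signalling at the wound edge is known to be needed for this. The adult host has little ecdysone compared with a larva about to pupariate, and it has its own circulating blood cells and a humoral immune response.

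All values are log2 ratios, taken as 24 hours over 0 hours, so that a value of 1 is a doubling. The labels give the dye of each RNA but not which RNA is on top of the ratio. Dye-swapped arrays of the same RNA correlated positively across genes (r = 0.844 and 0.721), which means that the deposited ratios all run one way, and later over earlier is the likely way given how the study names its comparisons. A gene was called up or down where its adjusted p was under 0.05 in limma and its change at least 1.5-fold. By this rule 738 of 12058 genes (6.12%) rose in C0→C24 and 596 (4.94%) fell. In NC0→NC24 5.14% of the genes rose and 3.85% fell. Of the genes called in C0→C24, 523 of the rises and 395 of the falls were called the same way in intact discs. Between 24 and 72 hours 1.36% rose and 1.58% fell. Ratios hold no levels, so the presence of disc or host tissue cannot be read from them. In bulk RNA, moreover, fewer cells of a type and less RNA per cell cannot be told apart. Of the markers of the wing disc, *vg* was at -0.16, *nub* at -0.64, *ap* at -0.20, *en* at 0.27 and *hh* at 0.24, and only *nub* was called.

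The 4 arrays correlated across genes with r from 0.613 (1A with 2B) to 0.877 (1B with 2A) and differed in the size of the change. Of all 12058 genes 5336 had one sign on all 4 arrays. Of the 1334 called genes 1330 did, which the call itself favours. Their median change among genes that rose was 0.82 on array 1A, 1.16 on 1B, 1.04 on 2A and 0.65 on 2B, and among genes that fell -0.76, -0.96, -0.96 and -0.53. Array 2B showed the smallest change of the 4 for 1024 of the called genes, and array 1B the largest for 772. Set against the mean of the other arrays, the median ratio was 0.61 for 2B and between 0.89 and 1.36 for the others. All 4 arrays share a median absolute deviation of 0.28, as left by the scaling the authors applied. With replicate 2 taken from array 2A alone, 865 genes rose and 797 fell, 730 and 594 of which were also called with all arrays. The fold changes given below are thus averages over arrays of unequal range.

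**Figure D1:**
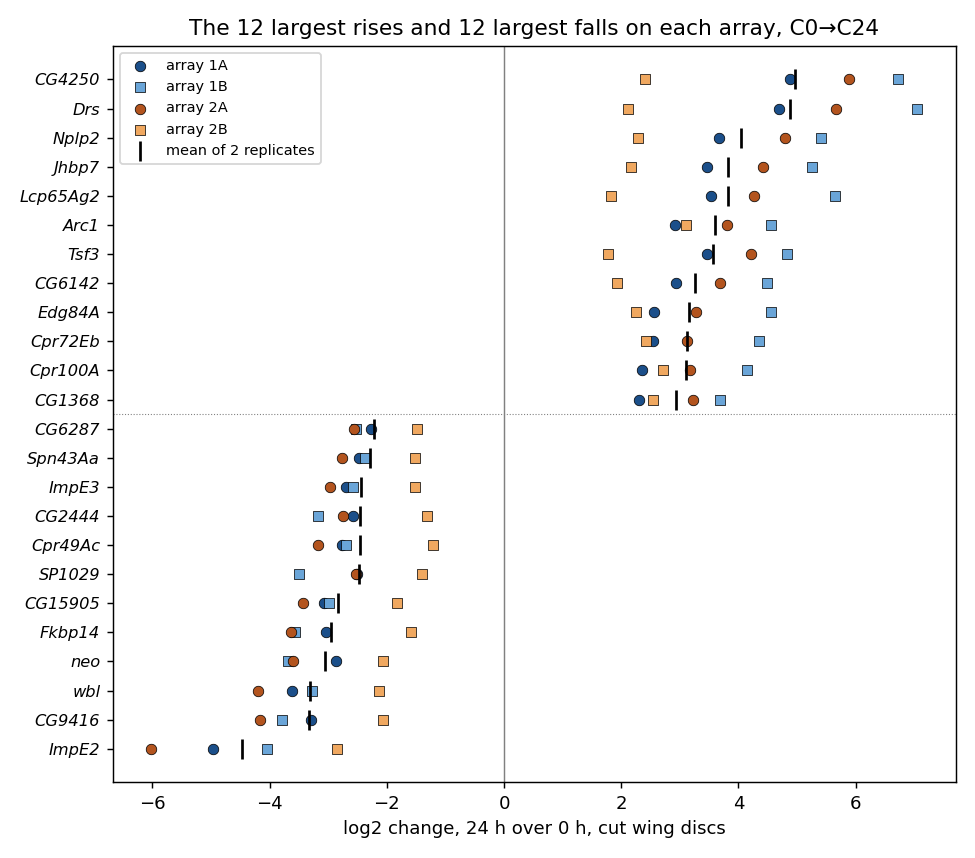
Log2 change (24 h over 0 h) on each of the 4 C0→C24 arrays for the 12 largest rises and the 12 largest falls among genes with one sign on all arrays. Points are arrays and black bars the mean of the 2 replicates. Array 2B lies nearest to 0 for every one of these falls and for 9 of the rises.

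The largest rise was that of *CG4250*, known by its annotation number alone, at 4.88, 6.73, 5.88 and 2.4 (mean 4.97). *Neuropeptide-like precursor 2* (*Nplp2*), whose product has been found in the blood of the larva as a lipoprotein-associated protein, was at 3.67 and 5.41 on the arrays of replicate 1 and at 4.80 and 2.29 on those of replicate 2, a mean of 4.04 ± 0.26 (SE, 2 replicates; adjusted p = 2.14e-05). *Arc1*, a gene whose protein forms virus-like capsids that carry RNA between cells, was at 2.91, 4.56, 3.80 and 3.11 (mean 3.60). *Tsf3*, of the transferrin family of iron carriers, was at 3.46, 4.83, 4.21 and 1.78 (mean 3.57). For *Nplp2* and *Tsf3* array 2B is the low one, whereas for *Arc1* it lies above 1A.

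*Drosomycin* (*Drs*), an antifungal peptide gene of the Toll response, had the second largest rise and the largest disagreement between replicates of all genes. Its arrays gave 4.69 and 7.05 in replicate 1 but 5.66 and 2.11 in replicate 2, a mean of 4.88 ± 0.46 (adjusted p = 0.000108). In intact discs it averaged 5.43, and the difference between the kinds of disc was -0.56 (adjusted p = 0.997). *Npc2b*, which belongs to a family of sterol-binding proteins, rose to 2.43, 3.34, 3.40 and 1.78 (mean 2.74, adjusted p = 2.22e-05). *bero*, which encodes a small membrane-anchored protein of the Ly6 family, was at 2.21, 3.73, 2.83 and 2.38 (mean 2.79 ± 0.14). The 20 largest rises were all called in intact discs too. Between 24 and 72 hours 7 of the 20 fell and 2 rose.

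The largest fall of all genes was *ImpE2*, an ecdysone-inducible gene of the disc, at -4.96, -4.04, -6.02 and -2.85 (mean -4.47, adjusted p = 3.00e-06). *windbeutel* (*wbl*), which encodes a folding factor of the endoplasmic reticulum known from the dorsal-ventral axis of the egg, was at -3.61, -3.27, -4.19 and -2.14 (mean -3.30 ± 0.11, adjusted p = 2.80e-06). *SP1029*, a gene for a predicted aminopeptidase of the cell surface, was at -2.51, -3.49, -2.53 and -1.40 (mean -2.48). *minidiscs* (*mnd*), an amino acid transporter that imaginal discs need for growth, was at -1.81, -1.98, -2.31 and -1.12 (mean -1.80, adjusted p = 1.08e-05). Array 2B is the one nearest to 0 for each of the 20 largest falls. *CG2444*, known by its annotation number alone, was at -2.58, -3.18, -2.74 and -1.31 in C0→C24 and at -0.13, -0.07, -0.66 and -0.94 in NC0→NC24. It is the only gene of the 20 not called in intact discs, and its difference of -2.0 had an adjusted p of 0.0622. Over the next period 10 of the 20 fell further and 0 rose.

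Ecdysone is the steroid that times moulting and metamorphosis. It acts through the receptor EcR-USP and a cascade of early and late genes, and discs respond to it by turning outwards and by making cuticle. Of 23 measured genes of this list 6 rose and 8 fell, with a median of -0.01 beside -0.01 for all genes. The genes that fell include those induced in discs as they evert. *ImpE3* was at -2.70, -2.58, -2.97 and -1.52 (mean -2.44 ± 0.11, adjusted p = 6.56e-06), *ImpE1* averaged -0.66 and *Stubble* (*Sb*), a serine protease gene needed for eversion, -0.59. The nuclear receptor genes *Hr3* and *Hr78*, which act early in the prepupal cascade, fell to -1.02 and -0.83.

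The 6 rises of the ecdysone list are 3 regulators and 3 cuticle genes. *ftz-f1*, a competence factor of the prepupa expressed when ecdysone is low, was at 1.06, 1.83, 1.56 and 0.99 (mean 1.36 ± 0.10, adjusted p = 3.33e-05). *Eip93F*, which directs cell death and adult differentiation, was at 1.15, 2.28, 2.07 and 1.0 (mean 1.62), and the receptor gene *EcR* itself was at 0.94, 1.41, 1.36 and 0.97 (mean 1.17). The cuticle genes *Edg84A*, *Edg78E* and *Edg91*, ecdysone-dependent genes of the pupal cuticle, rose by 3.16, 2.72 and 2.50. The same 3 genes fell between 24 and 72 hours, to -2.82, -3.78 and -1.39, whereas *ftz-f1*, *Eip93F* and *EcR* had 0.53, 0.09 and -0.14 there, with no call. Values of *broad* (*br*) at -0.37 (adjusted p = 0.0167) and of the second receptor subunit *usp* at 0.35 (adjusted p = 0.0739) did not pass. In intact discs *Hr3*, *ImpE1* and *Sb* averaged -0.22, -0.28 and -0.12 without a call. The differences of -0.80, -0.39 and -0.47 from cut discs did not pass either.

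Of 20 genes linked to juvenile hormone, the sesquiterpenoid that holds back metamorphosis, 4 rose and 0 fell, in cut and in intact discs alike. *Jheh2*, an epoxide hydrolase gene for its breakdown, was at 1.62, 2.29, 1.89 and 1.25 (mean 1.76, adjusted p = 1.68e-05). *Jhbp1*, a predicted binding protein gene, and *JhI-26*, a gene induced by the hormone, rose by 1.23 and 0.82. The primary response gene *Kr-h1* was at 0.30 (adjusted p = 0.0428), under the fold required.

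Wounds in the disc switch on JNK, which acts through AP1 on genes for actin, matrix and secreted ligands. In the list of wound and JNK target genes 9 of 18 rose and 1 fell (median 0.58). Values ran from -2.06 to 2.02, so the lowest lies at least as far from 0 as the highest. Intact discs had 7 up and 1 down of this list (median 0.35). Several of its genes are named in the paper for these arrays, so the count is no independent evidence of direction. The gene with the largest value, *Gadd45*, which encodes a stress sensor upstream of p38 and JNK, was at 1.56, 2.31, 2.50 and 1.73 (mean 2.02 ± 0.17, adjusted p = 7.30e-05). *cabut* (*cbt*), a zinc finger factor acting at JNK-dependent epithelial closure, was at 1.11, 2.06, 1.35 and 1.05 (mean 1.39 ± 0.21, adjusted p = 0.00115). The tyrosine hydroxylase gene *ple*, which supplies the crosslinking of cuticle at wounds, was at 1.17, 1.70, 2.06 and 0.79 (mean 1.43). Without replicate 1 of cut discs 5 of the 18 rose, and without replicate 2 6 rose. *ple* and *Ets21C* lost their calls in both cases and *cbt* without replicate 1. All 4 arrays are above 0 for *Gadd45*, *cbt* and *ple*, and *cbt* gave 1.34 in intact discs, close to its value in cut ones. *Gadd45* and *ple* were called up in intact discs too, at 1.08 and 0.91.

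*Ets21C*, a transcription factor gene induced by JNK in tumours and wounds, was at 0.55, 1.14, 0.92 and 0.91 (mean 0.88, adjusted p = 0.00530), beside 0.45 in intact discs, where it was not called. *cryptocephal* (*crc*), the fly ATF4, rose by 0.87 and went on rising between 24 and 72 hours (0.70). *Gadd45*, *ple*, *Ets21C* and *scyl*, an inhibitor of TOR signalling, fell in that period, to -1.25, -1.27, -0.79 and -0.91. These later values share the RNA of cut discs at 24 hours with the earlier ones, on the other side of the ratio.

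Of the ligands that wounded discs are known to secrete, 3 were measured here without a call. The interleukin-like *upd1* and *upd2* were at -0.06 and 0.06, and *Ilp8*, the relaxin-like signal by which damaged discs delay pupariation, at -0.10 (adjusted p = 0.597). The JNK cascade upstream had 0 genes up and 1 down of 17 (5.9%, near the 4.94% of all genes). The kinase genes *hep* and *bsk* were at -0.05 and -0.48, the TNF gene *egr* at 0.37 and the AP1 subunit gene *kay* at -0.04. The phosphatase gene *puc*, the usual reporter of the pathway, was at 0.69 and 0.39 in replicate 1 and 0.05 and -0.16 in replicate 2. Its mean was 0.24 (adjusted p = 0.272). Per the paper, *puc* rises and peaks before 24 hours after fragmentation and then declines, so differences at these time points are hard to detect. The called gene is *Pvr*, the receptor for PDGF- and VEGF-like ligands, which fell to -0.67 and -0.78 in replicate 1 and to -0.79 and -0.34 in replicate 2.

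Notch signalling ends in the E(spl) and Bearded complexes. E(spl) proteins of the bHLH class repress transcription, while Bearded proteins block the ubiquitin ligase Neuralized. Of 13 measured genes of these complexes 6 rose and 0 fell in C0→C24, with a median of 0.48, and 12 of the 13 lay above 0. In NC0→NC24 0 of the 13 were called and the median was 0.21. Some of these genes are named in the paper for these arrays, so that their direction is no independent evidence. The 6 were *E(spl)m3-HLH* (mean 1.09), *E(spl)malpha-BFM* (0.83), *E(spl)mbeta-HLH* (0.79), *E(spl)m7-HLH* (0.71), *E(spl)mdelta-HLH* (0.70) and *Brd* (0.60).

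The replicates of this group disagreed in size. *E(spl)m3-HLH* was at 1.54 and 1.94 in replicate 1 and at 0.64 and 0.25 in replicate 2 (adjusted p = 0.0112). Without replicate 1 its value is 0.445 and the call is lost, as are those of 4 other genes, and only *E(spl)mbeta-HLH* of the 13 was called. Without replicate 2 5 of the 13 were called, and with C0→C24 fitted alone 3 were. *E(spl)malpha-BFM* behaved likewise, with 0.84 and 1.72 against 0.50 and 0.28. *E(spl)mbeta-HLH* went the other way, with 0.61 and 0.44 in replicate 1 and 1.27 and 0.83 in replicate 2. The most even was *E(spl)mdelta-HLH* with 0.95, 0.70, 0.87 and 0.27 (adjusted p = 0.000633). In no member did the change in cut discs minus that in intact discs pass the test. Both replicate values in cut discs lay above both in intact discs for 7 of the 13 genes and below both for 0, beside 16.9% and 19.9% of all genes. Among all 738 genes called up in C0→C24, 318 lay above both.

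The genes that carry and modify the Notch signal gave 0 calls of 14. The ligase gene *neur* was at 0.07, the glycosyltransferase gene *fng* at 0.53 (adjusted p = 0.0834) and the co-repressor gene *gro* at 0.11. *Notch* itself and *Delta* were not analysed here. *hairy* (*hry*), a related bHLH repressor of bristle fate, rose to 1.0, 1.38, 1.16 and 0.86 (mean 1.1 ± 0.09, adjusted p = 5.58e-05), and the proneural gene *l(1)sc* fell to -0.61.

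**Figure D2:**
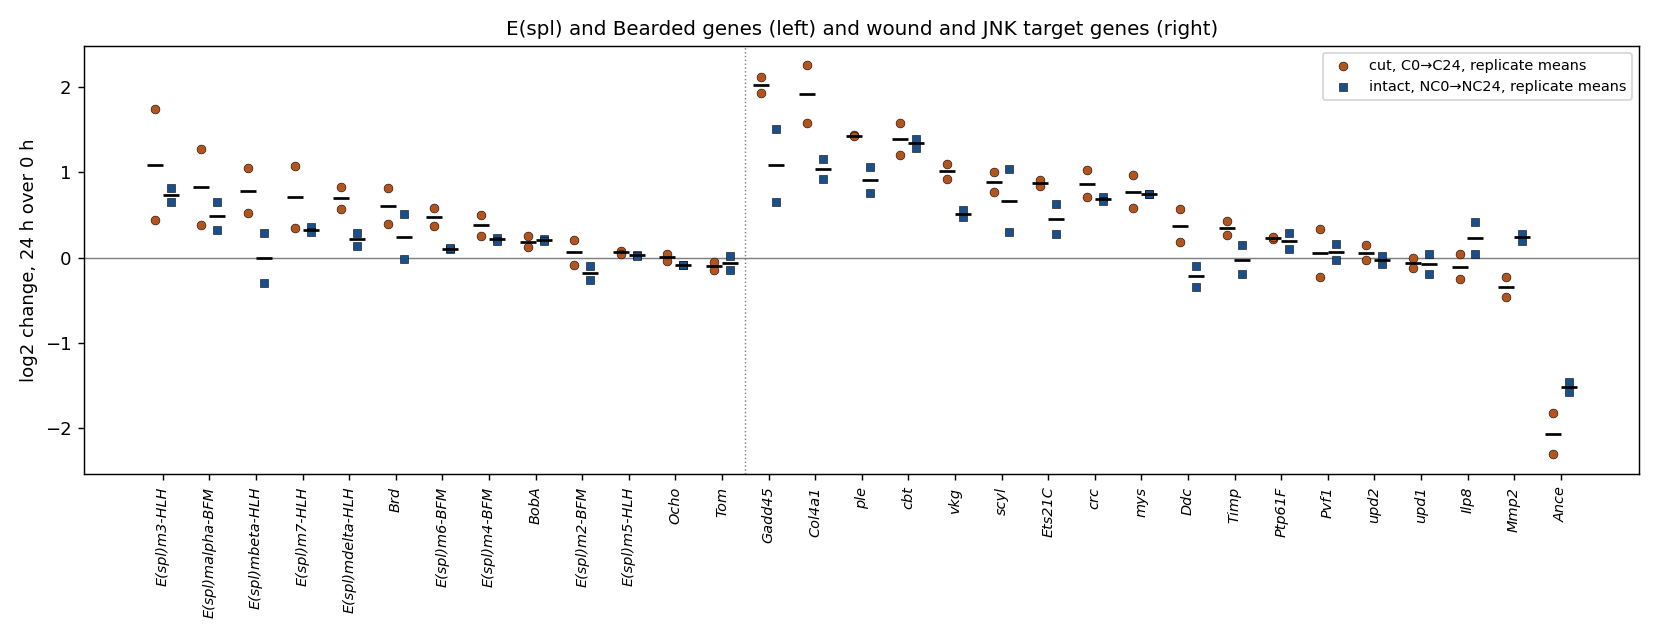
Log2 change (24 h over 0 h) of the E(spl) and Bearded genes (left of the dotted line) and of the wound and JNK target genes (right), with the 2 replicate means of cut discs as circles, those of intact discs as squares and group means as bars. *E(spl)m3-HLH* shows a wide gap between its cut replicates, and *Gadd45* and *Col4a1* have the highest values of the wound list in cut discs.

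Other pathways of disc growth and pattern were short lists with calls near the shares over all genes (6.12% up and 4.94% down). The share called up was 4.3% for Dpp and activin, 6.2% for Hippo and 6.7% for EGFR and Ras. Wnt genes had 0 calls of 8, with *Wnt6* at -0.49 (adjusted p = 0.0236), short of 1.5-fold. Of 23 Dpp and activin genes *Smox*, the activin-type Smad, rose by 0.77. The metalloprotease genes *tok* and *tld*, which free BMP ligands from their inhibitor Sog, fell to -1.34 and -0.82. The arrays of *tok* stood at -1.19, -1.64, -1.54 and -0.99. The ligand gene *dpp* was at 0.05 (adjusted p = 0.947). Among 16 Hippo genes only the coactivator gene *yki* rose (0.59), with *ex*, a common target, at 0.16. Among 15 EGFR and Ras genes the feedback inhibitor *sprouty* (*sty*) alone rose, by 0.61.

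In the JAK/STAT list the zinc finger genes *ken* and *chinmo*, both tied to STAT output in other fly tissues, rose, and 0 of 12 fell. *chinmo* was at 0.81, 1.21, 1.1 and 0.60 (mean 0.93, adjusted p = 0.000765), beside 0.24 in intact discs without a call, and *ken* was at 1.33, 1.80, 1.23 and 0.77 (mean 1.28). The difference between cut and intact discs did not pass for either (adjusted p = 0.332 for *chinmo* and 0.936 for *ken*). *Stat92E* was at 0.29 and the receptor gene *dome* at -0.04.

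Genes of regional identity moved little and mostly downwards. In the wing pouch list 0 of 22 rose and 2 fell (median -0.15), and in the hinge and notum list 0 of 16 rose and 2 fell (median -0.20). *defective proventriculus* (*dve*), a homeobox gene of the pouch, was at -0.44, -0.98, -1.18 and -0.75 (mean -0.84, adjusted p = 0.000207). *drumstick* (*drm*), a zinc finger gene of the hinge, was at -0.89, -1.34, -1.09 and -0.35 (mean -0.92), and *araucan* (*ara*), an Iroquois gene, at -0.54, -0.56, -0.93 and -0.47 (mean -0.62). In the compartment and Hedgehog list *ara* and *Su(fu)*, a negative regulator of the pathway (-0.65), were the 2 falls of 17. *ptc* and *ci* had values of -0.32 and 0.39 and did not pass.

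Among 18 genes of insulin and TOR signalling 3 rose and 1 fell, beside 2 and 1 in intact discs. *REPTOR-BP*, whose product with REPTOR carries the transcriptional response to TOR inhibition, was at 1.78, 2.20, 2.09 and 1.30 (mean 1.84 ± 0.14, adjusted p = 3.79e-05). *REPTOR* itself rose by 0.66 and *gigas* (*gig*), the fly TSC2, by 0.59. The fall was *ImpL2*, a secreted protein that binds insulin-like peptides, which was at -1.56, -1.91, -1.22 and -0.88 (mean -1.39). In autophagy 4 of 21 genes rose and 0 fell. They are *Atg9*, *Atg8a*, *Atg6* and the cargo receptor gene *ref(2)P*, between 0.69 and 1.03, and intact discs had 6 up of 21. The *Atg9* arrays were at 1.0, 1.11, 1.33 and 0.68.

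Of 21 cell death genes 6 rose and 0 fell, in cut and in intact discs alike. The caspase genes and the killer genes of the H99 type were not among the rises. *Dronc* and *Dcp-1* were at -0.35 and 0.02 and *grim* at 0.13. The rises were *Eip93F*, *scyl*, *eIF3m*, the Bcl-2 family gene *Debcl* (1.15), the inhibitor of apoptosis gene *Diap2*, which also acts in the Imd pathway (1.39, 1.82, 1.58 and 0.99, mean 1.45), and *croquemort* (*crq*), a receptor for dead cells. Mitosis genes had 5 up and 2 down of 41, with 3 up without replicate 1. The shares of this list were 12.2% up and 4.9% down, beside 6.12% and 4.94% of all genes. *tumbleweed* (*tum*), a cytokinesis GAP, rose by 0.92 and the checkpoint kinase gene *lok* by 0.92, while *fzy* and *Rbf* fell to -0.67 and -0.66. In the replication list 0 of 33 rose and 5 fell, with a median of -0.41. *Prim1*, the primase gene, was at -1.07, -1.49, -1.57 and -0.77 (mean -1.23, adjusted p = 3.55e-05), and *PCNA* at -0.71, -0.75, -1.16 and -0.65 (mean -0.82). Intact discs had 11 of these 33 genes down, with a median of -0.52. Without array 2B the falls in cut discs numbered 10 of 33.

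Genes of humoral immunity formed the list with the highest share of rises. Antimicrobial and immune-induced peptides are made under Toll and Imd, in fat body, blood cells and epithelia. Of 22 measured genes 12 rose and 0 fell (median 0.90), and in intact discs 11 rose (median 0.56). Beside *Drs* stand *Defensin* (*Def*) at 1.68, 2.78, 2.55 and 1.59 (mean 2.15 ± 0.11, adjusted p = 1.14e-05) and *Metchnikowin* (*Mtk*) at 1.94, 2.75, 2.89 and 0.90 (mean 2.12). *AttB*, which encodes an attacin against Gram-negative bacteria, was at 1.27, 2.13, 1.90 and 1.03 (mean 1.58). Of the Bomanins, a family of Toll effectors, *BomS6* rose by 2.71, *BomT2* by 2.19 and *BomBc2* by 1.98. The *Drosomycin*-like genes *Drsl1*, *Drsl2*, *Drsl3*, *Drsl4* and *Drsl5* stayed between -0.24 and 0.06 without a call, and only *Drsl6* rose (1.25). Near-identical members of these families may share probe signal.

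Between 24 and 72 hours the list of peptides had 0 up and 8 down of 22, in ratios that share the 24-hour RNA with C0→C24. *Drs* fell to -3.47 and *Def* to -2.14, while *BomS6* and *BomT2* had -0.01 and -0.30. Of 30 recognition and signalling genes 5 rose in C0→C24 and 0 fell. They are the NF-κB gene *Relish* (*Rel*) at 1.36, 1.71, 1.79 and 1.16 (mean 1.50), *Diap2*, the receptor gene *PGRP-LF* (1.12), the Toll ligand gene *spz* (0.82) and its serpin regulator *nec* (0.86). *Tl*, the receptor, was at 0.56 and *imd* at 0.32. *PGRP-LF*, *spz* and *nec* had 0.51, 0.20 and 0.31 in intact discs without a call, and the differences did not pass (adjusted p from 0.248 to 0.435).

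Hemocyte markers set cut discs apart from intact ones in count. Of 27 measured genes 12 rose and 0 fell in C0→C24 (median 0.48), and in NC0→NC24 6 rose (median 0.06). *eater*, a receptor of phagocytic blood cells, was at 1.25, 1.76, 1.72 and 1.0 in cut discs, against 0.23 and 0.06 for the replicate means of intact discs, a difference of 1.29 ± 0.13 (SE, adjusted p = 0.0268). *Hemese* (*He*), a surface glycoprotein gene of all larval blood cells, was at 0.37, 0.59, 0.35 and 0.59 in cut discs and at -0.56 and -0.51 in intact discs, a difference of 1.01 (adjusted p = 0.0404). Cut and intact discs do not overlap on any array for either gene, which picking the genes by this test favours. Leaving out any 1 replicate of either kind of disc ended both calls of a difference. *He* itself was called neither in C0→C24 (mean 0.475) nor in NC0→NC24 (mean -0.53).

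*Hemolectin* (*Hml*), a clotting factor gene of the plasmatocyte, was at 1.09, 2.06, 1.72 and 0.87 (mean 1.44), beside 0.64 in intact discs. *NimC1*, the plasmatocyte antigen P1, was at 0.60, 1.14, 1.34 and 0.42 (mean 0.88), beside 0.33. *Glutactin* (*Glt*), a basement membrane protein gene of these cells, was at 0.57, 0.79, 0.83 and 0.34 (mean 0.63), beside 0.01. *srp*, the GATA factor of blood and fat body, was at 0.58, 0.82, 1.49 and 0.49 (mean 0.84), beside 0.13. All 4 rose in cut discs, and their differences did not pass with all arrays (adjusted p from 0.118 to 0.196).

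Not every blood cell gene moved. The crystal cell genes *lz*, *PPO1* and *PPO2* were at 0.00, 0.30 and 0.07 and the lamellocyte marker *atilla* at 0.07. *Pxn* was at 0.17 and *gcm* at -0.50, with its replicates apart. Both replicate values in cut discs lay above both in intact discs for 16 of the 27 genes (59.3%, beside 16.9% of all genes) and below both for 2. Among all 738 genes called up in C0→C24, 318 lay above both. Without array 2B of C0→C24, 5 of the 27 were called higher in cut discs, namely *eater*, *He*, *Hml*, *Glt* and *Col4a1*.

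Larval fat body markers gave 9 up and 1 down of 18 in C0→C24 (median 0.54), beside 3 up and 1 down in NC0→NC24 (median 0.21). *fat-spondin*, which encodes a secreted protein of the fat body, was at 1.6, 2.45, 2.36 and 1.42 in cut discs and at 1.05 and 0.89 in intact discs, a difference of 0.99 (adjusted p = 0.0404). *apolpp*, the gene of the main lipoprotein of the blood, was at 1.86, 2.22, 2.28 and 1.06 (mean 1.85, adjusted p = 0.000159), beside -0.05 and 0.90 in intact discs. *Obp99c*, an odorant binding protein gene counted with this list, was at 2.16, 3.39, 3.09 and 1.69 (mean 2.58). The intact replicates lay far apart for the storage protein gene *Lsp2*, at -1.41 and 0.64, whereas it was at 1.45, 2.36, 2.84 and 1.22 in cut discs. *Fbp1* stayed at 0.13 and the lipase gene *bmm* had replicate values far apart, -1.17 and -2.14 beside -0.03 and -0.12. Without array 2B, *fat-spondin*, *apolpp*, *Obp99c* and *Fbp2* were called higher in cut than in intact discs.

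These marker lists rise together with the immune peptides and the basement membrane genes, and their part in those results was not tested. *Col4a1* and *vkg*, the genes of collagen IV, stand in both the wound and the hemocyte list. They were at 1.86, 2.65, 2.26 and 0.90 (mean 1.92) and at 0.89, 1.32, 0.94 and 0.90 (mean 1.01). *SPARC*, a collagen-binding matrix protein gene, was at 1.71, 2.26, 2.08 and 1.15 (mean 1.80). In the basement membrane list 5 of 23 rose and 0 fell. The trachea list had 4 up and 0 down of 13 in cut and in intact discs alike. Those in cut discs are *sty*, *Gasp*, *mmy* and *serp*, of which *Gasp*, *mmy* and *serp* are also in the chitin list. Ovary and yolk genes had 1 up and 1 down of 24, and the yolk protein genes *Yp1*, *Yp2* and *Yp3* were at 0.18, 0.07 and -0.19. Muscle genes had 1 up and 1 down of 24, gut proteases 1 up and 0 down of 37, and neuron and glia genes 2 up and 1 down of 24, the rises being *Arc1* and *Arc2*. Without array 2B 4 of the 24 neuron and glia genes rose.

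**Figure D3:**
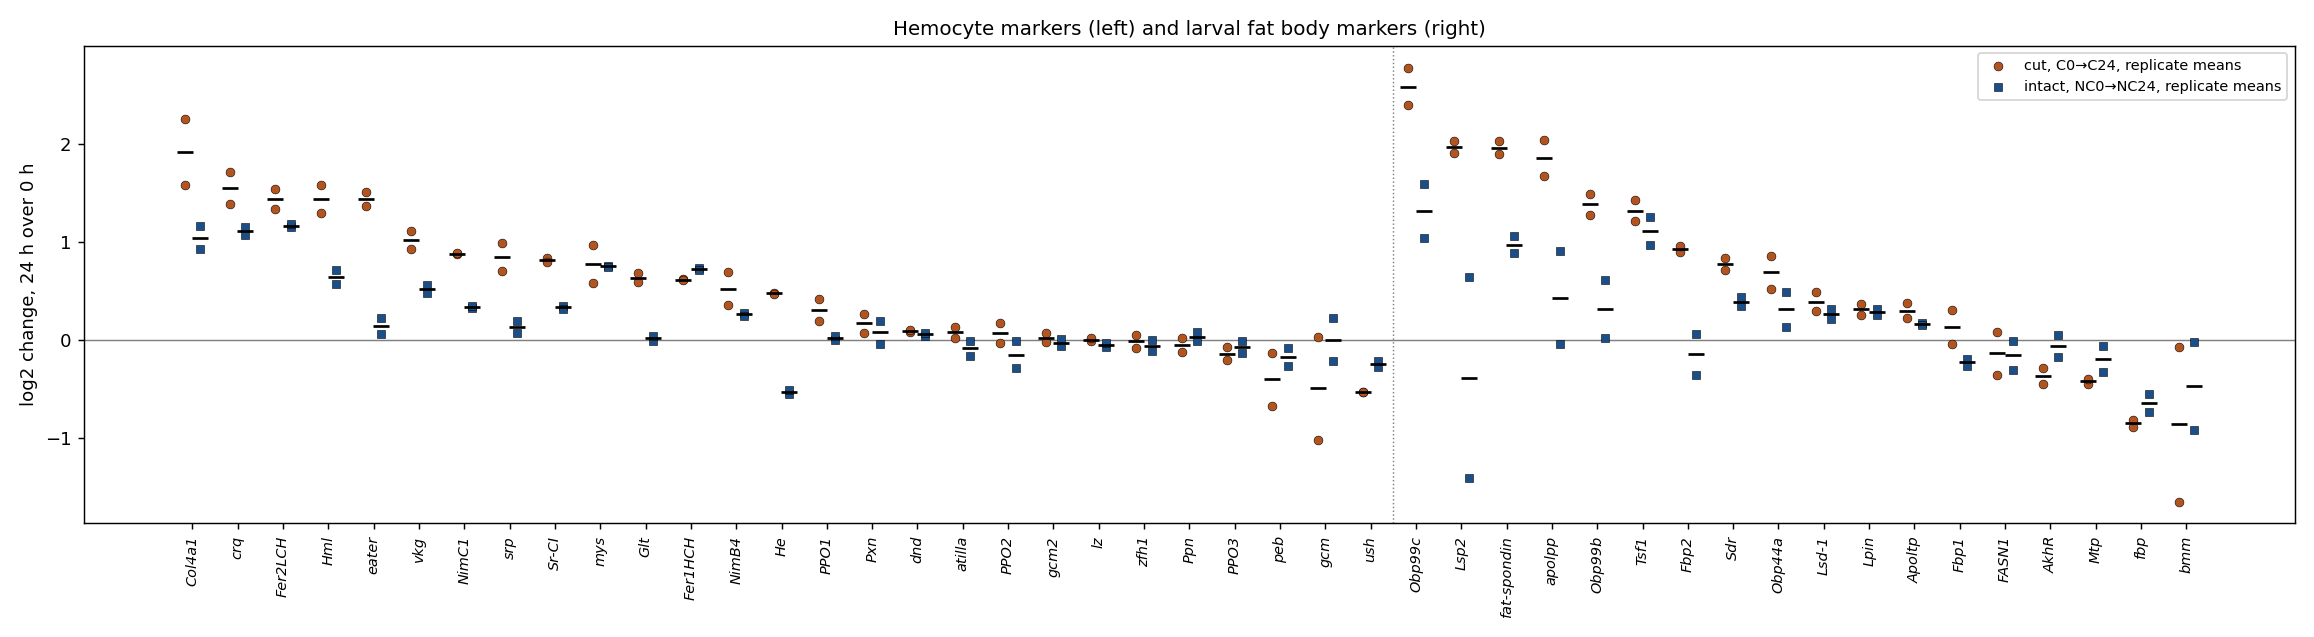
Log2 change (24 h over 0 h) of hemocyte markers (left of the dotted line) and larval fat body markers (right), with replicate means of cut discs as circles, of intact discs as squares and group means as bars. The cut values lie above the intact ones for *eater*, *Hml*, *NimC1*, *srp*, *Glt* and *He*, and the intact replicates of *Lsp2* lie at -1.41 and 0.64.

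Chitin and cuticle genes were the largest family among the rises. Of 33 genes for the synthesis and remodelling of chitin 17 rose and 1 fell (median 0.70), beside 15 and 1 in intact discs. *mmy*, which makes the sugar nucleotide for chitin, was at 1.70, 2.29, 1.89 and 1.03 (mean 1.73). The chitin-binding genes *obst-A* and *obst-B* rose by 2.13 and 2.26, and *Gasp*, of the same family, by 1.76. *reb*, which promotes chitin deposition, was at 0.76, 1.21, 1.46 and 0.81 (mean 1.06). The chitin synthase gene *kkv* was at 0.52 (adjusted p = 0.00365), below 1.5-fold. *Cht4*, a chitinase gene, fell to -1.18. Of the Idgf family, chitinase-like growth factors of disc cells in culture, *Idgf1*, *Idgf2* and *Idgf6* rose by 1.59, 1.96 and 2.21, and the other 3 of 6 were not called. The same 3 genes were called up in intact discs. *Idgf2* was at 1.6, 2.40, 2.44 and 1.39.

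Of 117 cuticle protein genes 26 rose and 3 fell, with a median of 0.06, beside 20 and 2 in intact discs. The rises reach high values. *Cpr72Eb* was at 2.55, 4.35, 3.13 and 2.43 (mean 3.11) and *Cpr100A* at 2.36, 4.14, 3.17 and 2.72 (mean 3.10). *Cpr97Eb* was at 1.0, 1.37, 1.51 and 1.0 in cut discs and at -0.05 and 0.23 in intact discs, a difference of 1.13 (adjusted p = 0.0404). *Cpr49Ac* fell to -2.76, -2.70, -3.18 and -1.22 (mean -2.46), so the family did not move as one. Between 24 and 72 hours 3 of the 117 rose and 15 fell. Genes with close copies in this family may share probe signal.

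ZP domain proteins tie the epidermis to the overlying cuticle and shape the cell surface. Of 13 measured genes 0 rose and 4 fell, with a median of -0.03 beside -0.01 for all genes, and 0 and 1 in intact discs. Without replicate 1 of cut discs 2 fell. The largest of the 4 falls was *neo*, at -2.87, -3.68, -3.6 and -2.06 (mean -3.05). *miniature*-related *dusky* (*dy*) was at -0.83, -0.77, -0.94 and -0.16 (mean -0.68), *morpheyus* (*mey*) at -0.83, -0.97, -1.25 and -0.62 (mean -0.92) and *trynity* (*tyn*) at -0.75. In the pigment and tanning list 5 of 20 rose and 3 fell. *amd*, related to dopa decarboxylase and needed for cuticle, was at 1.1, 1.65, 1.39 and 0.79 (mean 1.23), *yellow-g* rose by 0.83 and *yellow-e3* fell to -1.64, -1.82, -2.02 and -0.90 (mean -1.6).

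**Figure D4:**
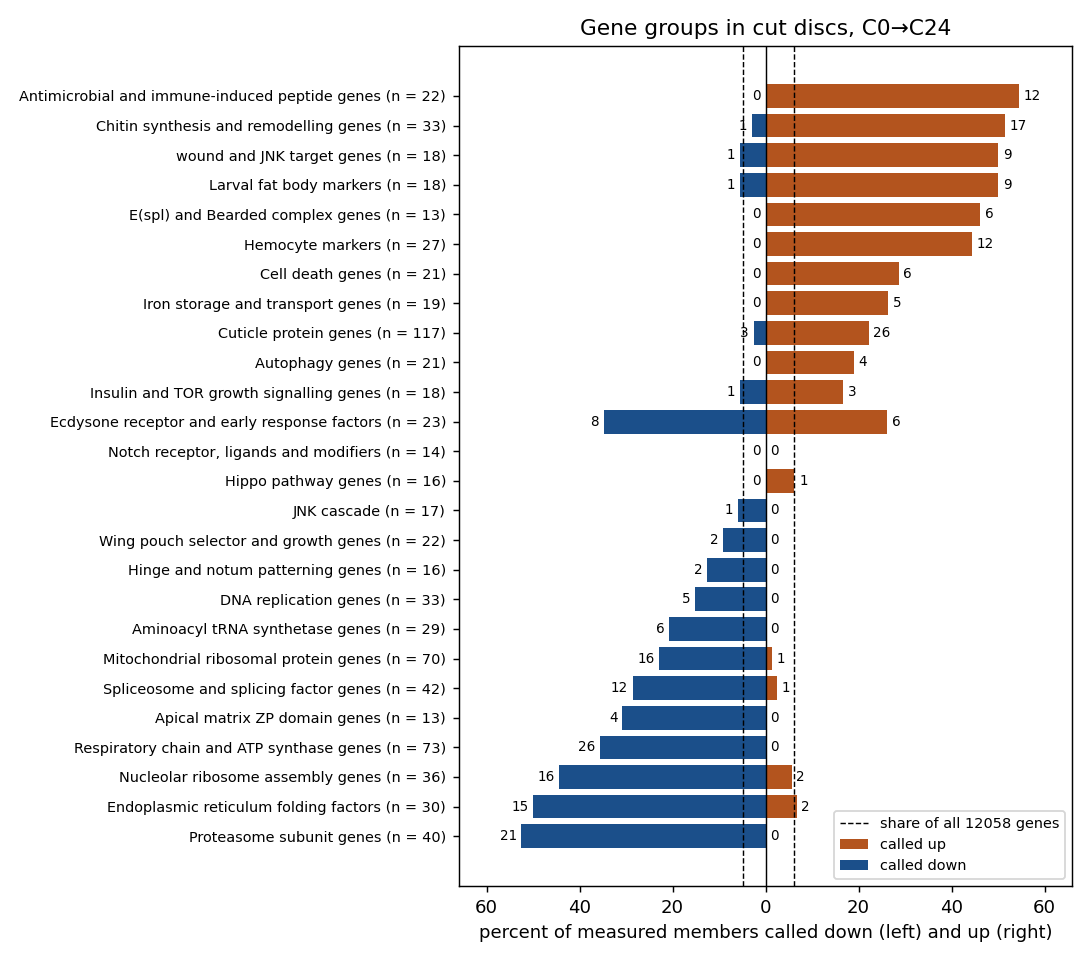
Percent of the measured members of each gene list called up (right) and down (left) in C0→C24, with the number called beside each bar, and the shares over all 12058 genes as dashed lines. The proteasome list has 21 of 40 genes down and the immune peptide list 12 of 22 up.

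The largest concerted falls were in the machinery for making and destroying proteins. The proteasome degrades ubiquitin-tagged proteins through a core of alpha and beta subunits and a cap of Rpn and Rpt subunits. Of 40 measured genes 0 rose and 21 fell in C0→C24 (median -0.67), beside 0 and 15 in NC0→NC24 (median -0.45). *Rpn12*, of the cap, was at -1.32, -1.6, -1.22 and -0.84 (mean -1.25 ± 0.11, adjusted p = 7.61e-05). *Prosalpha4*, of the core, was at -1.1, -1.05, -1.19 and -0.71 (mean -1.01), and *Rpt2*, an ATPase of the cap, at -0.94, -1.26, -1.01 and -0.65 (mean -0.97). The falls cover alpha, beta, Rpn and Rpt subunits alike.

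The list splits along the names of its genes, a division made after the values were seen. All 21 falls are among the 26 standard subunits, which range from -1.25 to -0.34 with 26 of 26 below 0 (median -0.84). The 14 copies whose names end in R or T, expressed mainly in the male germ line, had 0 calls and lay between -0.20 and 0.27 (median 0.00). Both replicate values in cut discs lay below both in intact discs for 18 of the 26 standard subunits (69.2%, beside 19.9% of all genes). Among all 596 genes called down in C0→C24, 281 lay below both. The difference itself was called for 0 of the standard subunits.

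**Figure D5:**
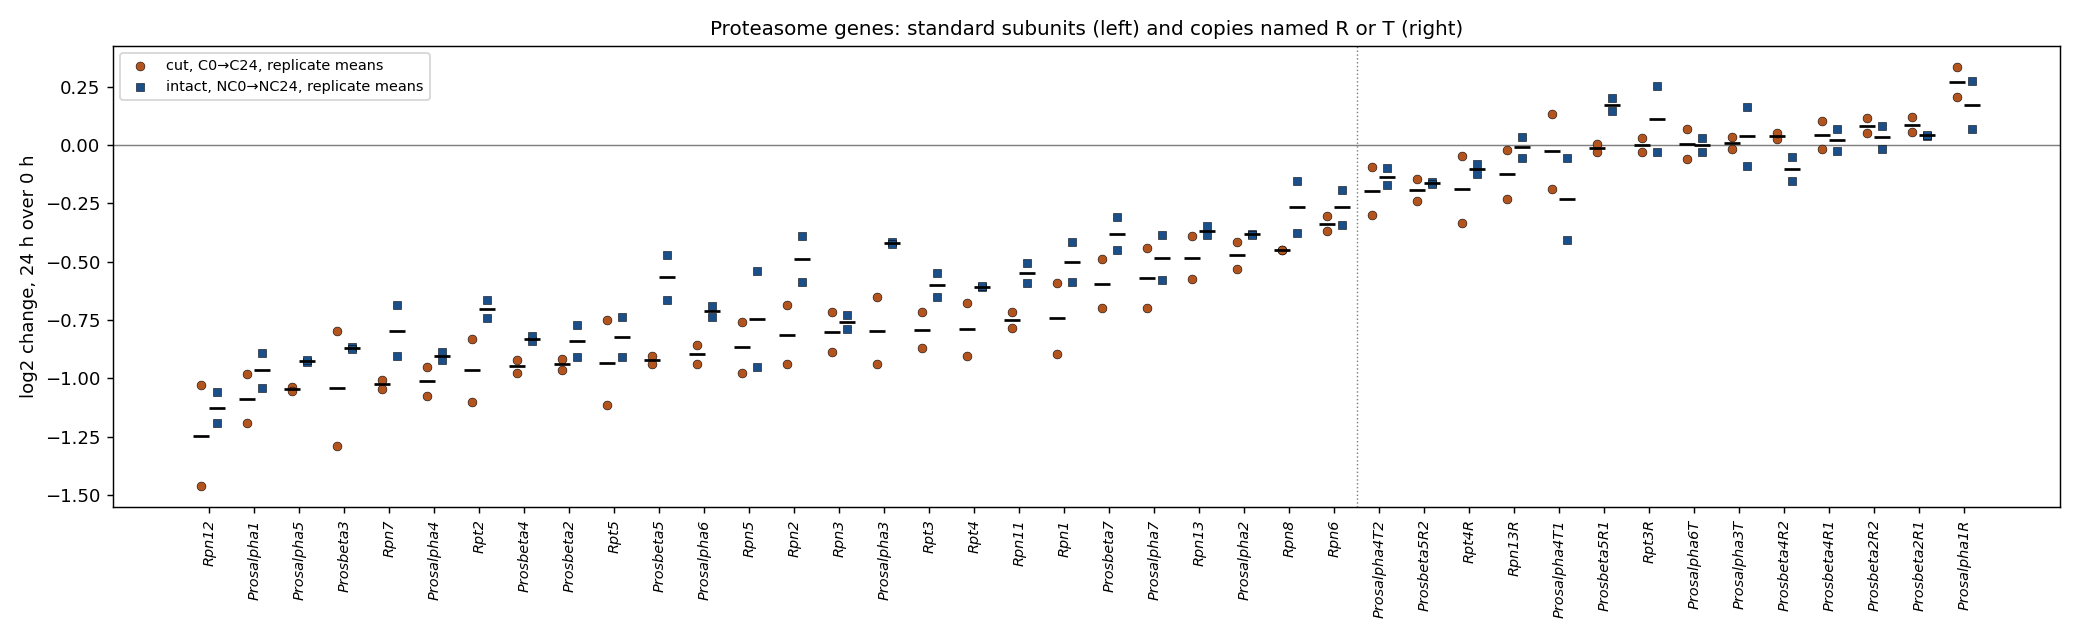
Log2 change (24 h over 0 h) of the 26 standard proteasome subunit genes (left of the dotted line) and the 14 copies named R or T (right), with replicate means of cut discs as circles, of intact discs as squares and group means as bars. All 26 standard subunits lie below 0 in cut discs, while the copies lie around 0.

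In the endoplasmic reticulum 15 of 30 folding factor genes fell and 2 rose (median -0.61), beside 14 and 1 in intact discs (median -0.43). *Fkbp14*, a prolyl isomerase gene, was at -3.04, -3.57, -3.64 and -1.58 (mean -2.96 ± 0.14, adjusted p = 9.52e-06). The translocon genes *Sec61alpha*, *Sec61beta* and *Sec61gamma* fell to -0.89, -1.14 and -1.36, and the isomerase gene *Pdi* to -1.21. The 2 that rose are *crc* and *Plod*, which modifies collagen (0.60). The sensor genes *Ire1*, *PEK* and *Atf6* were at 0.01, -0.36 and 0.45 and did not pass. Heat shock genes of the cytosol had 0 up and 3 down of 22, beside 0 and 4 in intact discs. *Hsp27* was at -1.70, -2.11, -1.79 and -1.28 (mean -1.72).

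Translation genes did not move as a block. In the nucleolus 16 of 36 genes of ribosome assembly fell and 2 rose (median -0.53), beside 15 and 2 in intact discs. *NHP2*, of the snoRNPs that make pseudouridine, was at -1.11, -1.40, -1.42 and -0.92 (mean -1.21, adjusted p = 2.75e-05). *Non1*, a nucleolar GTPase gene, rose against the trend to 1.80, 3.27, 2.32 and 1.82 (mean 2.30). Of 38 cytosolic ribosomal protein genes 1 rose and 1 fell (median 0.04), and without array 2B 3 rose and 4 fell. Of 43 translation factor genes 8 rose and 5 fell, and without replicate 1 of cut discs 4 rose and 3 fell. Subunits of eIF3 rose, with *eIF3l* at 1.31, 1.49, 1.94 and 0.69 (mean 1.36), *eIF3c* at 0.87 and *eIF3i* at 0.76, whereas *eIF1* fell to -0.91. Of 29 aminoacyl tRNA synthetase genes 0 rose and 6 fell, beside 2 falls in intact discs. *ValRS* was at -1.01, -1.13, -1.36 and -0.50 (mean -1.0), and *AlaRS* was at -0.60 in cut and -0.10 in intact discs (adjusted p of the difference = 0.218).

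Splicing genes had 1 up and 12 down of 42 (median -0.31), beside 2 and 10 in intact discs. *Prp8*, at the heart of the spliceosome, was at -1.04, -1.02, -1.19 and -0.50 (mean -0.94) and *Sf3b3* at -0.91, -1.08, -1.53 and -0.98 (mean -1.12). *hfp*, a splicing regulator gene, rose by 0.90. In the mitochondrion 26 of 73 genes of the respiratory chain and ATP synthase fell and 0 rose (median -0.46), beside 25 and 0 in intact discs. *COX8* was at -1.24, -1.58, -1.06 and -1.01 (mean -1.22), and *Cyt-c1*, of complex III, at -0.98, -1.12, -1.18 and -0.73 (mean -1.0). Mitochondrial ribosomal protein genes had 1 up and 16 down of 70 (median -0.33), beside 1 and 11 in intact discs.

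Of 23 genes of sugar metabolism 7 rose and 1 fell, and without replicate 1 of cut discs 4 rose. The rises include the glycolytic aldolase gene *Ald1* (0.67) and *Pgm1* (0.89). *Glyp*, glycogen phosphorylase, was at 1.24, 1.64, 1.54 and 0.76 (mean 1.30), while *Glys*, glycogen synthase, rose too, by 0.76, and *fbp*, fructose bisphosphatase, fell to -0.85. Lipid genes had 6 up and 0 down of 31, among them *midway* (*mdy*), which makes triglycerides (1.13), and *Npc2a* (0.92). In iron metabolism 5 of 19 rose and 0 fell, in cut and in intact discs alike. The transferrin gene *Tsf1* was at 1.11, 1.73, 1.71 and 0.71 (mean 1.31), and the ferritin genes *Fer2LCH* and *Fer1HCH* rose by 1.44 and 0.61. *Irc*, an immune-regulated catalase gene, was at 1.77, 2.71, 2.59 and 1.54 (mean 2.15 ± 0.09, adjusted p = 6.56e-06), beside 1.35 in intact discs.

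Lists of the cytoskeleton and chromatin gave few calls. In the actin list 0 of 22 rose and 4 fell (median -0.02), with 11 genes above 0 and 11 below. In intact discs 1 of this list rose and 5 fell. The 4 falls in cut discs are *twinstar* (*tsr*), the cofilin gene (-1.0, -1.14, -1.06 and -0.85, mean -1.01), *singed* (*sn*), and *cpa* and *cpb*, both subunits of the capping protein (-0.72 and -0.89). The integrin gene *mys* and the focal adhesion gene *stck* rose by 0.78 and 1.08, the 2 calls of 17. Adherens junction and apical polarity genes had 0 calls of 17. In the trithorax and Brahma list *ash2*, *Nap1* and *Bap60* rose, by 1.13, 0.64 and 0.60, and 0 of 24 fell. Intact discs had 2 up and 1 down of this list. Without replicate 1 of cut discs *Bap60* was at 0.545, below 1.5-fold. *ash2*, of the histone H3 lysine 4 methyltransferase complex, was at 1.07, 1.27, 1.38 and 0.81 in C0→C24, averaged 1.26 in intact discs, and rose by 0.86 between 24 and 72 hours. Polycomb group genes had 1 up and 1 down of 16.

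Whether cutting changed the response to implantation was asked by the difference C0→C24 minus NC0→NC24, tested in the same model. It was called higher in cut discs for 7 genes (0.0581% of those tested) and lower for 2 (0.0166%), and 716 genes had an unadjusted p under 0.05. *CG4259*, which encodes a predicted serine protease-like protein, was at 1.40, 2.37, 2.09 and 1.13 in cut discs and at 0.66 and 0.34 in the intact replicates. *His1:CG31617*, a copy of the linker histone gene, was at -0.46, -0.68, -1.12 and -0.18 in cut discs and at 1.42 and 1.06 in intact discs, a difference of -1.85 (adjusted p = 0.0235). It belongs to a family of near-identical histone copies that may share probe signal.

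None of the 7 higher genes kept the call when any 1 replicate of cut or intact discs was left out, nor under treat or with the replicate number as a block. Of the 2 lower genes 1 kept it in 1 of these cases, without replicate 2 of intact discs. The number of calls also moved with array 2B. With replicate 2 of C0→C24 taken from array 2A alone, 41 genes were higher and 28 lower in cut discs, and the 9 genes above were among them. In that fit, chosen after the data were seen, the genes added on the higher side include *Nplp2* (2.11), *apolpp* (1.74), *Karl*, a lipocalin gene (1.29), the clot gene *fondue* (*fon*, 1.03) and the forkhead gene *jumu* (0.99). On the lower side stand *CG2444* (-2.36), *SP1029* (-1.54), the ecdysone-responsive repressor gene *Blimp-1* (-1.23) and the metalloprotease gene *Mmp2* (-0.70). With all arrays *Blimp-1* was at -1.51, -1.81, -1.87 and -0.82 in cut discs and averaged -0.53 in intact discs, a difference of -0.97. Arrays 1B and 2A, however, have a wider spread over genes (SD 0.56 and 0.52) than any intact array (0.38 to 0.45), so the count without 2B rests on arrays at the other end of the range.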

How the data were processed

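The arrays were printed with oligonucleotides of a whole-genome set and each was hybridized with 2 RNAs in Cy3 and Cy5. Per the labels, both arrays of a replicate pair carried the same amplified RNA with the dyes swapped. The authors scanned the arrays, normalized them with OLIN (scaling by median absolute deviation), each set of 4 separately, and used limma, for which no version is given in the sources used here. The deposited log2 ratios were used as they are, with no new background correction, and depth does not apply, so that the number of arrays limits the precision. That scaling brings arrays to a like median absolute deviation but not to a like SD, which ran from 0.36 (2B) to 0.56 (1B) in C0→C24.

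Of 16416 features 13164 carried 1 gene symbol, 101 several and 3151 none. Symbols were updated by gene identifier (12533) or accession (120) and otherwise kept (511). Probes of a gene were averaged (757 of 12058 genes had several), then the dye-swapped arrays of a replicate. A model with 3 groups was fitted to the 6 replicate means (limma 3.58.1, R 4.3.3) with Benjamini-Hochberg adjustment over 12058 genes. It had 3 residual and 5.64 prior degrees of freedom, a median SE of 0.094 and a 95% interval of 2.28 SE on either side. Replicates are separate RNA extractions, and since no source used here says more, p-values measure only the spread between these samples. The script was tested on simulated data.

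The gene lists (68) and the members described were chosen with earlier results of these data known. Named genes are the 20 largest rises and falls with 1 sign on all 4 arrays, up to 5 called members of each list, all genes called in the difference, genes the study names, and members needed to show what did not pass. Genes named outside it were chosen after their values were seen. These are the further list members given with values, and the genes added without array 2B. Replicate numbers are shared by the groups, and whether same-numbered samples of different groups were prepared together is not known here. Their deviations from the group means had r = -0.12 between C0→C24 and NC0→NC24, which cannot settle it. Fits with and without a replicate block are therefore both given. The alternatives changed the fold threshold, test, model, block, dye term, centring, scaling, probe rule, moderation and samples. Genes without a single symbol here, among them *wg*, *N* and *arm*, were not analysed. No columns of the authors' own comparisons were used.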

Additional observations from a re-analysis of the deposited data

Results flagged for a closer look

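For 9 genes the change in cut discs differed from that in intact discs by a test of the difference in limma, with adjusted p from 0.0235 to 0.0454. Of these 7 were higher in cut discs. The differences were 1.29 for *eater*, 1.245 for *CG4259*, 1.127 for *Cpr97Eb*, 1.125 for *CG14629*, 1.008 for *He*, 0.988 for *fat-spondin* and 0.902 for *CG18641*. *CG14629* was at 1.38, 2.22, 1.73 and 1.56 in cut discs, above its 4 intact arrays at 0.62, 0.66, 0.68 and 0.43. *CG18641* was at 0.54, 1.05, 0.88 and 0.53 in cut discs and below 0 on every intact array. The differences were -1.85 for *His1:CG31617* and -1.413 for *CG9416*, which fell in both kinds of disc, to -3.33 in cut and -1.92 in intact discs. Leaving out any 1 replicate of cut or intact discs ended the call for all 7 higher genes, as did treat and the replicate block. The 2 lower genes lost it too in these cases, except that 1 kept it without replicate 2 of intact discs.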

How the results depend on the processing

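With all arrays, 738 genes rose and 596 fell in C0→C24, and the difference from intact discs was called higher for 7 and lower for 2. A 2-fold threshold gave 293 and 133, no fold threshold 1671 and 1551, and limma's treat at 1.5-fold 284 and 136 in C0→C24 and 0 and 0 in the difference. The difference gave 3 higher calls with arrays centred on their median, 2 with each probe as its own feature, and 10 higher and 5 lower calls with comparisons fitted alone. Of the 7 higher genes 4 were kept with each array as a replicate and 3 with a dye term on 12 arrays. Without array 2B, chosen after the data were seen, the difference gave 41 and 28. Leaving out 1 replicate of cut or intact discs in turn gave 0 to 2 higher and 0 to 1 lower calls in the difference, and left between 607 and 786 rises and between 466 and 674 falls in C0→C24. There the lone replicate is assumed to vary like the other groups.

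With the replicate number as a block the difference had 0 higher and 0 lower calls, while C0→C24 kept counts of 738 and 596. Whether the numbers pair the samples is not known, and the r of deviations (-0.12) cannot decide it. The crossed pairing, added after the data were seen, gave 0 higher and 2 lower calls.

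Of 258 named genes 250 were called, and 0 of these changed direction under any of 16 alternatives. Several alternatives alter only the threshold or the test and leave the mean as it is. Direction was not followed for named genes without a call, such as *dpp*, at 0.14 and 0.11 in replicate 1 and -0.02 and -0.04 in replicate 2. Calls were lost by 106 at 2-fold, 109 under treat, 33 without replicate 1 and 13 without replicate 2. With 2 replicates a group, differences between cut and intact discs could be missed, and not only small ones. In the limma test of the difference *CG2444* was at -2.0 (adjusted p = 0.0622) and *apolpp* at 1.43 (adjusted p = 0.146), both without a call. A difference that did not pass is thus no sign of equal change. The array number limits the precision.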

Other observations

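Some genes gave values that the replicates or the dye orders do not share. *TER94*, an ATPase gene of protein quality control, was at 0.01 and -0.15 in replicate 1 and at 2.39 and 1.3 in replicate 2. The proneural gene *ato* was at -1.33 and -1.67 in replicate 1 and at 0.07 and 0.11 in replicate 2, and *Hsp110* at -0.8 and -1.21 beside 0.8 and 0.21. *mei-P26*, a germ line growth regulator gene, followed the dye, with 1.08 and 0.90 on the arrays of order A and -0.61 and -0.57 on those of order B. The 4 probes of *Rm62*, an RNA helicase gene, gave means of 2.18, 1.83, -0.32 and -1.04, and it was the 1 gene with a probe called up and another called down.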
